A study of Homo sapiens with 16 samples.

Results

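The collagen chain genes were the gene symbols of the deposited expression table made of COL, a type number, A and a chain number. This rule found 44 chains under 50 Ensembl identifiers, among 63677 identifiers in the count table. The 6 surplus identifiers all belong to COL11A2 and had no count in any library, so COL11A2 was followed by the identifier that was counted. RNA was sequenced from MiaPaCa2 and PANC1, established human cell lines from pancreatic cancers grown without other cell types. The groups of each line were untreated controls and cells given, over 24 hours, 40 nM gemcitabine, a nucleoside drug that blocks DNA synthesis, 50 µM genistein, a plant isoflavone, or both drugs (co-treatment). Each of the 8 groups had 2 biological replicates, which made 16 libraries of poly-A RNA with 12943482 to 31991860 reads counted on genes.

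Collagens are matrix proteins whose chains wind around each other into a helix in the endoplasmic reticulum before they are secreted. Fibril-forming collagens such as types I, III and V give tissue its tensile strength, type IV forms the network of basement membranes, type VI forms beaded filaments, and fibril-associated collagens decorate the fibrils. Type I collagen is made from the products of COL1A1 and COL1A2, and in pancreatic cancer tissue most of it comes from fibroblasts, although tumour cells also make collagens.

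The genes of type IV collagen lie head to head in pairs, so that both chains of a pair start from a shared stretch of DNA. RefSeq places the starts of COL4A1 and COL4A2 126 bases apart, those of COL4A3 and COL4A4 418 bases apart and those of COL4A5 and COL4A6 379 bases apart. The stretch between COL4A1 and COL4A2 is shown because these 2 chains had nearly equal log2 fold changes under each drug alone in MiaPaCa2. With both drugs they were less alike, at 0.27 for COL4A1 and 0.01 for COL4A2 after a correction for GC content described below. The 250 bases before COL4A5 are shown because it was the type IV chain that was higher in PANC1. Both sequences are from RefSeq promoters matched to GRCh37 and are written 5′ to 3′ on the plus strand, with matches to the CCAAT box (CCAAT) and the GC box (GGGCGG) on either strand in capitals.
COL4A1-COL4A2: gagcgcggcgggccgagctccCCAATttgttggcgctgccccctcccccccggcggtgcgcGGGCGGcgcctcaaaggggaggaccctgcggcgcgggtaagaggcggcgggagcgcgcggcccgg
COL4A5: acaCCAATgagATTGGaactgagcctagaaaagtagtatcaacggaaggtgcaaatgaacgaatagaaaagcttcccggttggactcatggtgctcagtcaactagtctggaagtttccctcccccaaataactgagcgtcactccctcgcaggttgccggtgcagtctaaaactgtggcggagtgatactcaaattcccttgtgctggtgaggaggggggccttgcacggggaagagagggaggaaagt
The COL4A1-COL4A2 stretch (chr13:110959505-110959630, plus strand) had a GC content of 80.2%, with CCAAT starting at base 22 and GGGCGG at base 62, each on the printed strand. The COL4A5 stretch (chrX:107682818-107683067, plus strand) had a GC content of 51.2%, with CCAAT at base 4 and, on the opposite strand, at base 12. No match to the TATA box (TATAAA) was found in either window, and no GGGCGG in the COL4A5 window. The matches do not overlap. Among 35116 RefSeq promoters, 21.1% of windows of 126 bases held CCAAT, 34.6% held GGGCGG and 5.87% held TATAAA, and of windows of 250 bases 32% held CCAAT, 42.6% GGGCGG and 10.7% TATAAA. The RefSeq table held a promoter for 32 of the 44 chains.

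The lines were first checked against cell type markers, each counted as expressed where the mean FPKM of the controls was above 1 (FPKM are reads scaled to transcript length and library depth). Of 6 ductal epithelial markers, 6 were expressed in PANC1 and 3 in MiaPaCa2, where EPCAM and CDH1 had 3 counts or fewer in every library. All 7 fibroblast markers had 3 counts or fewer in every MiaPaCa2 library, while in PANC1 PDGFRB and THY1 were expressed and DCN, LUM, PDGFRA, FAP and POSTN had 3 counts or fewer. Summed over the 7 genes, this was 0 to 0.254 FPKM in MiaPaCa2 and 28.5 to 43 FPKM in PANC1. Of 3 endothelial markers, 1 was expressed in MiaPaCa2 and 0 in PANC1, the leukocyte genes PTPRC and CD3E had 3 counts or fewer in both lines, and the 4 acinar and islet genes had no count. CD68, the third leukocyte gene, had 1 and 0 counts beside 14.2 and 19.7 FPKM in the MiaPaCa2 controls and 13 and 14 counts in the PANC1 controls, and 81.6% of its exons overlap other genes on the same strand, so its level is uncertain.

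Many collagen chains had few or no counts. In MiaPaCa2, 10 chains had no count in any library (COL6A5, COL6A6, COL8A1, COL9A1, COL10A1, COL14A1, COL15A1, COL21A1, COL22A1 and COL28A1), and another 10 never had more than 3 counts (COL2A1, COL4A3, COL9A3, COL11A1, COL12A1, COL16A1, COL19A1, COL23A1, COL24A1 and COL25A1). In PANC1, 4 chains had no count (COL6A5, COL10A1, COL19A1 and COL25A1) and 9 never had more than 3 (COL1A2, COL4A3, COL4A4, COL6A6, COL8A1, COL9A1, COL14A1, COL15A1 and COL28A1). A library without a count still allows up to 3 counts at its depth. COL6A5 of type VI and COL10A1 of cartilage type X were the 2 chains with no count in all 16 libraries.

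A mean above 1 FPKM in the controls was reached by 13 chains in MiaPaCa2 and 18 in PANC1, against 25.6% and 26.8% of all 63677 identifiers. The 9 chains above this level in both lines were COL4A2, COL5A1, COL5A2, COL6A1, COL6A2, COL7A1, COL18A1, COL26A1 and COL27A1. COL1A2, COL4A1, COL6A3 and COL17A1 were above it in MiaPaCa2 alone, and 9 chains (COL1A1, COL2A1, COL4A5, COL9A2, COL9A3, COL11A1, COL13A1, COL16A1 and COL22A1) in PANC1 alone. The other 22 were above it in neither. In PANC1, 11 chains were above 2 FPKM. All collagen reads together made up 0.242% and 0.245% of the counts of the MiaPaCa2 controls and 0.27% and 0.224% of those of the PANC1 controls, so the summed levels overlapped between the lines although the chains behind them did not match.

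**Figure D1:**
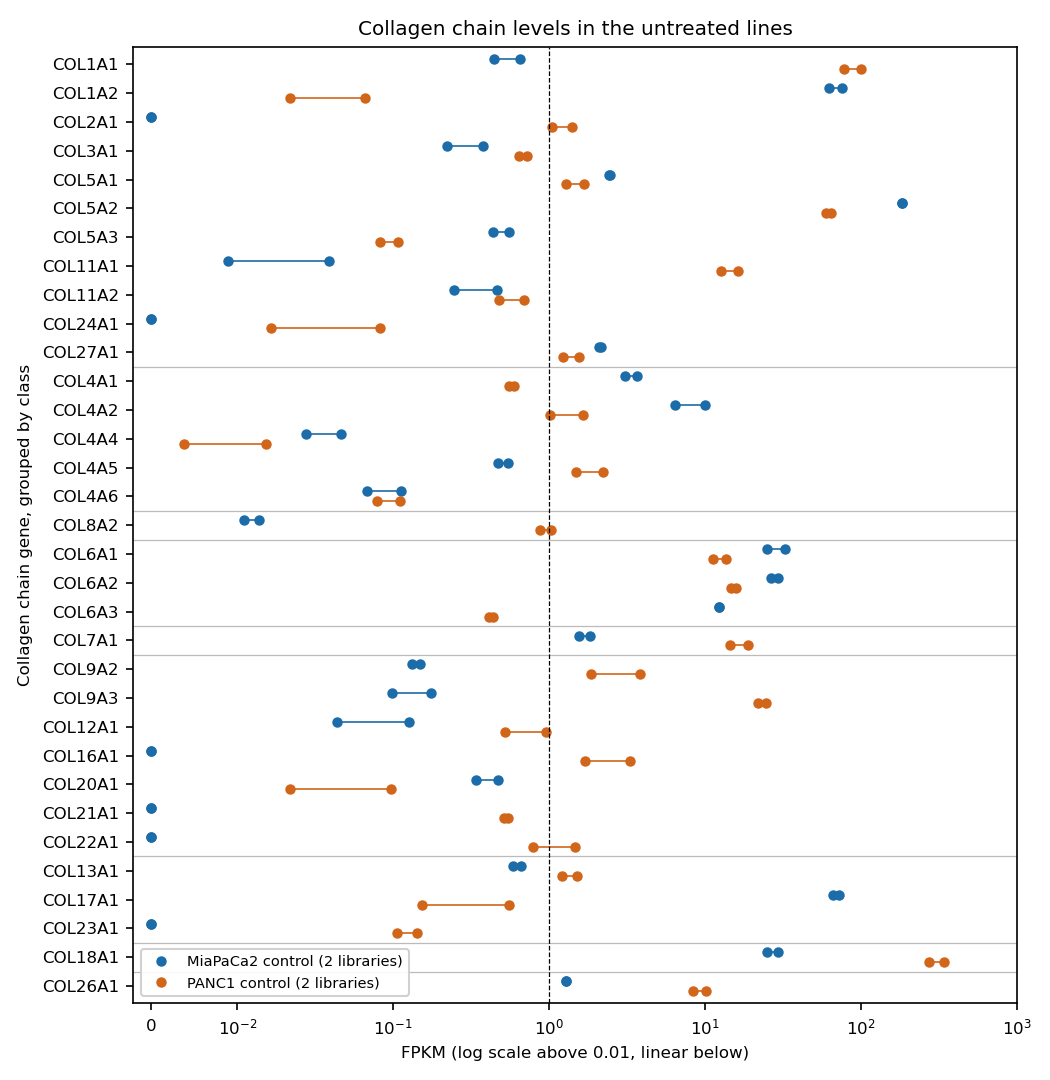
FPKM of the collagen chains in the 2 control libraries of each line, on a log axis, grouped by collagen class, with a dashed line at 1 FPKM. The 33 chains with more than 3 counts in some library are plotted, and COL1A1 and COL1A2 lie on opposite sides of the line in the 2 cell lines.

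Ordered by FPKM, which is scaled to transcript length, COL5A2, a fibril-forming chain of type V collagen, led in MiaPaCa2 with 185 FPKM in both controls. COL17A1, the membrane-spanning collagen of hemidesmosomes, was next with 66.8 and 72.4 FPKM, and COL1A2 had 62.7 and 76.3 FPKM, so these neighbours overlapped. COL6A1 (24.9 and 32.8), COL6A2 (26.5 and 29.3) and COL18A1 (25 and 29.5 FPKM) also overlapped, above COL6A3 at 12.3 in both and COL4A2 at 9.99 and 6.43 FPKM. In PANC1, the order was led by COL18A1, whose product carries endostatin at its end, with 340 and 275 FPKM. Next came COL1A1 with 99.7 and 77.6, COL5A2 with 64.3 and 59.8 and the cartilage chain COL9A3 with 24.5 and 22 FPKM, and these 4 did not overlap. COL7A1 of the anchoring fibrils (18.9 and 14.5), COL6A2 (15.8 and 14.7) and COL11A1 (12.6 and 16.4 FPKM) overlapped.

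The comparison of the untreated lines asked which chains the lines use at different levels before any drug. The comparison took its fold changes from counts, whose ratios can differ from those of the deposited FPKM. It was fitted with limma-voom over all genes, and a gene was called where the Benjamini-Hochberg adjusted p was at most 0.05, the log2 fold change at least 0.4 in size and the mean FPKM above 1 in either line. Of the 44 chains, 30 passed the count filter, 29 had an adjusted p of at most 0.05 (63.3% of all genes tested), and 22 of these were called, 12 higher and 10 lower in PANC1. Among all 17863 genes tested 52.2% were called, 27.9% higher and 24.3% lower. COL1A2, COL2A1, COL4A4, COL9A3, COL11A1, COL12A1, COL16A1, COL21A1 and COL22A1 never had more than 3 counts in 1 of the lines and passed the filter through the other, and COL8A2, COL9A2 and COL20A1 were counted too rarely in 1 line to be tested there. Of these 12, COL4A4, COL8A2, COL12A1, COL20A1 and COL21A1 were under 1 FPKM in the controls of both lines and are not among the 22 calls. The others of the 12 (COL1A2, COL2A1, COL9A2, COL9A3, COL11A1, COL16A1 and COL22A1) had to differ, so the 22 calls are a description. For these chains, an SE or adjusted p given below describes the fit and is no test of a difference.

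The 2 chains of type I collagen were split between the lines. COL1A1 (ENSG00000108821, chr17:48261462-48278993, minus strand) had 18 and 9 counts (0.655 and 0.443 FPKM) in the MiaPaCa2 controls and 7512 and 8245 counts (99.7 and 77.6 FPKM) in the PANC1 controls. COL1A2 (ENSG00000164692, chr7:94024207-94060539, plus strand) had 5277 and 4251 counts (62.7 and 76.3 FPKM) in MiaPaCa2 and 3 and 1 counts (0.0217 and 0.0656 FPKM) in PANC1. The libraries of the lines did not overlap for either chain, in opposite directions. The log2 fold change of PANC1 over MiaPaCa2 was 8.39 (SE 0.64, adjusted p = 1.01e-07) for COL1A1 and -11.90 (SE 0.52, adjusted p = 5.71e-10) for COL1A2. Since COL1A2 was nearly uncounted in PANC1, its ratio is better given from the counts, as 4190-fold lower with a 95% exact interval of 1640 to 15400 that covers counting error alone. Of the 7 fibroblast markers, 2 (PDGFRB and THY1) were expressed in PANC1, the line with COL1A1, and 5 had 3 counts or fewer there, while the epithelial markers EPCAM and CDH1 had 211 to 634 counts in the PANC1 controls and 0 or 1 in those of MiaPaCa2. The part of these markers in the difference was not tested.

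**Figure D2:**
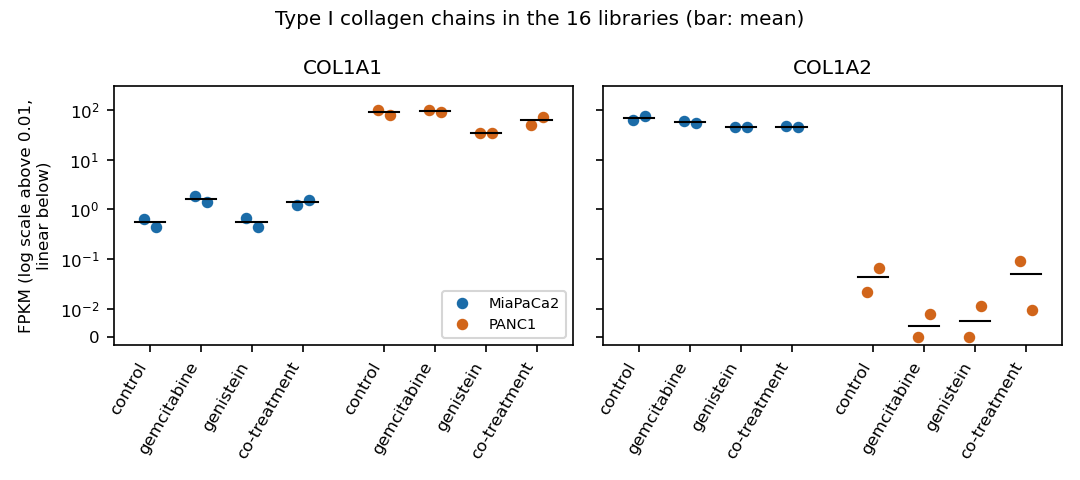
FPKM of COL1A1 and COL1A2 in each of the 16 libraries, by line and treatment, with points for replicates and a bar at the mean of each group. COL1A2 is listed at or near 0 FPKM in every PANC1 library, and COL1A1 stays below 2 FPKM in every MiaPaCa2 library.

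The split held in the treated libraries too. COL1A1 lay between 0.443 and 1.83 FPKM over the 8 MiaPaCa2 libraries and between 33.7 and 99.7 FPKM over the 8 PANC1 libraries, and COL1A2 between 44.4 and 76.3 FPKM in MiaPaCa2 and between 0 and 0.092 FPKM in PANC1. The transcript of each gene with the most FPKM gave the same picture: ENST00000225964 of COL1A1 was at 39 and 29 FPKM in the PANC1 controls and 0.0784 and 0.0387 FPKM in the MiaPaCa2 controls, and ENST00000297268 of COL1A2 was at 44.5 and 42.8 FPKM in the MiaPaCa2 controls. COL1A1 thus had other transcripts for the larger share of its FPKM in the PANC1 controls, where ENST00000225964 made up 39.1% and 37.4% of the sum. In MiaPaCa2 this transcript made up 12% and 8.73% in the controls. With gemcitabine there it made up 20.6% and 22%, at 0.378 and 0.308 FPKM. COL1A1 had 9 to 63 counts per MiaPaCa2 library and 13 listed transcripts, so these MiaPaCa2 shares are uncertain.

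Among the other fibril-forming chains, COL11A1, a minor chain of cartilage fibrils, had 1 and 2 counts in the MiaPaCa2 controls and 1172 and 2200 in the PANC1 controls, a ratio of 639 (95% interval 218 to 3100, log2 fold change 8.95, SE 0.59, adjusted p = 2.47e-08). COL2A1, the main cartilage chain, had no count in the MiaPaCa2 controls and 146 and 164 counts in PANC1, which is at least 30.2-fold higher against a floor of 3 counts per library (log2 fold change 7.46, SE 0.65, adjusted p = 3.76e-07). Of type V, COL5A2 was lower in PANC1 (log2 fold change -1.67, SE 0.08, adjusted p = 1.99e-09), and so were COL5A1 (-0.78) and COL27A1 (-0.74), the chain of type XXVII. COL3A1, the partner of type I in soft tissue, stayed under 1 FPKM in both lines, with 28 and 14 counts in MiaPaCa2 and 90 and 118 in PANC1.

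The network chains were divided as well. Fold changes are from the counts, and the deposited FPKM of COL4A1, COL4A2 and COL4A5 differed by less between the lines. COL4A1 fell from 3.06 and 3.67 FPKM in MiaPaCa2 to 0.594 and 0.556 FPKM in PANC1 (log2 fold change -3.63, SE 0.19, adjusted p = 3.51e-09), and its head-to-head neighbour COL4A2 from 9.99 and 6.43 to 1.65 and 1.01 FPKM (-3.25, SE 0.21, adjusted p = 1.87e-08). COL4A5, of the X-linked pair, had 0.468 and 0.548 FPKM in MiaPaCa2 and 1.5 and 2.22 FPKM in PANC1 (log2 fold change 2.85, SE 0.30, adjusted p = 2.57e-06), while its neighbour COL4A6 was counted too rarely to be tested in either line. The type VI chains COL6A1, COL6A2 and COL6A3 were all lower in PANC1, by -1.26, -0.81 and -4.78 on the log2 scale. COL6A1 and COL6A2 were at like levels throughout, their FPKM ratio lying between 0.601 and 1.24 in the 16 libraries, but COL6A3, which joins them in the type VI molecule, was at 12.3 FPKM in both MiaPaCa2 controls and 0.414 and 0.436 FPKM in the PANC1 controls.

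COL17A1 fell from 66.8 and 72.4 FPKM in MiaPaCa2 to 0.555 and 0.153 FPKM in PANC1 (log2 fold change -8.56, SE 0.31, adjusted p = 1.25e-10). In the other direction went COL18A1 (log2 fold change 3.74, SE 0.31, adjusted p = 2.23e-07), of whose exons 18.5% overlap SLC19A1 on the opposite strand, COL7A1 (4.46) and COL26A1 (2.74). COL9A3 had 1 and 1 counts in MiaPaCa2 and 954 and 1008 in PANC1, a ratio of 557 (95% interval 154 to 4610, log2 fold change 8.55, SE 1.22, adjusted p = 3.8e-05), and its type IX partner COL9A2 had 0.148 and 0.133 FPKM in MiaPaCa2 and 3.85 and 1.85 in PANC1. The third type IX chain, COL9A1, had 3 counts or fewer in all libraries. Of fibril-associated chains without a count in the MiaPaCa2 controls, COL16A1 was at least 10.4-fold, COL22A1 at least 8.19-fold and COL21A1 at least 5.72-fold higher in PANC1.

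Of 48 genes that modify, export, process, crosslink, bind or degrade collagen, 44 were tested and 26 were called between the untreated lines, 16 higher and 10 lower in PANC1, beside the 52.2% of all genes. Of these 44, 10 could not be tested within MiaPaCa2 and passed the filter through PANC1, so they had to differ and the count is a description. LOXL1, a crosslinking oxidase, had no count in the MiaPaCa2 controls and 842 and 983 counts in PANC1, and the gelatinase MMP2 had 3 and 7 against 6859 and 9365 counts. ITGA2, a collagen-binding integrin subunit, had 14 and 11 counts in MiaPaCa2 and 3059 and 6440 in PANC1 (log2 fold change 7.65), and the collagen receptor gene DDR2 had 2080 and 1571 against 15 and 21 (-7.43).

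The drug comparisons asked how each chain responded within a line, fitted over that line's 8 libraries, with the FPKM criterion applied to the treated group. Levels are given below as CPM (normalised read counts scaled to library depth, by the TMM method within a line), which can be compared between libraries but not between genes. In such bulk samples, fewer cells making a chain and less RNA per cell cannot be told apart. Of the 44 chains, 21 could be tested in MiaPaCa2 and 27 in PANC1, 18 of them in both.

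In MiaPaCa2 treated with gemcitabine, 10 of the 21 tested chains were called, 9 higher and 1 lower, against 29.5% of all 16064 genes tested (14.9% higher and 14.6% lower). By class, 4 of 8 tested fibril-forming chains were called, 3 of them higher, and all calls of 2 of 4 basement membrane chains and 2 of 3 chains of beaded filaments were higher. COL1A1 had the largest change, from 1.1 and 0.687 CPM in the controls to 3.67 and 3.15 CPM (log2 fold change 1.90, SE 0.34, adjusted p = 0.000947), on counts of 18 and 9 against 63 and 52. Both treated libraries were above both controls, at 1.83 and 1.4 FPKM, where COL1A2 had 59.7 and 53.5 FPKM. Of type V, COL5A3 rose from 3.41 and 4.35 to 8.56 and 6.54 CPM (log2 fold change 0.97, SE 0.23, adjusted p = 0.00496) and COL5A1 by 0.53, whereas COL5A2, the most abundant chain, fell from 1420 and 1390 to 1000 and 862 CPM (log2 fold change -0.60, SE 0.09, adjusted p = 0.000289). The type V chains therefore moved in opposite directions, without overlap of treated and control libraries for COL5A2 or COL5A3.

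The type VI chains COL6A1 and COL6A2, neighbours on chromosome 21, rose side by side, COL6A1 from 24.9 and 32.8 to 58.4 and 44.8 FPKM (log2 fold change 0.68, SE 0.16, adjusted p = 0.005) and COL6A2 from 26.5 and 29.3 to 56.3 and 47.9 FPKM (0.79, SE 0.16, adjusted p = 0.00246). Their partner COL6A3 had a log2 fold change of -0.26 (adjusted p = 0.0563), at 12.3 FPKM in both controls and 12.2 and 10.5 FPKM with the drug. The type IV pair COL4A1 and COL4A2, whose shared start stretch is printed above, rose by 0.50 (25.2 and 22.9 to 34.7 and 33.6 CPM) and 0.54 (39.2 and 41.6 to 62.7 and 54.7 CPM). COL7A1 rose from 2.74 and 3.67 to 5.36 and 5.03 CPM (log2 fold change 0.72, SE 0.23, adjusted p = 0.0238), and the fibril-associated COL20A1 from 1.16 and 1.37 to 3.44 and 2.3 CPM (1.15, SE 0.33, adjusted p = 0.0145). COL1A2 had a log2 fold change of -0.25 (adjusted p = 0.0284), too small to be called, and COL17A1 one of -0.08.

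These values moved with base composition. The libraries differed in how counts depended on the GC content of exons, with slopes of -0.22 and -0.13 (log2 CPM per 10 points of GC) in the MiaPaCa2 controls and 0.14 and 0.05 with gemcitabine, and the log2 fold changes rose with GC content over the 21 chains (Spearman's rho 0.45) as over all genes (0.43). After removal of each library's GC trend, 7 chains were called, 5 higher and 2 lower (COL5A2 and COL26A1), and their median log2 fold change went from 0.50 to 0.18, against -0.01 over all genes before the correction. COL1A1 (1.56), COL5A3 (0.52), COL20A1 (0.76), COL4A1 (0.43), COL4A2 (0.41) and COL5A2 (-0.69) were called in both, while COL5A1 had 0.19 (adjusted p = 0.128), COL6A1 0.18 (adjusted p = 0.0682), COL6A2 0.23 (adjusted p = 0.0231) and COL7A1 0.23 (adjusted p = 0.42). Shares of all genes called after this correction are not given, here or below. The part of GC content in these results was not tested. Without gemcitabine replicate 1 or without control replicate 1, 5 chains were called, and with all 16 libraries in a shared model COL1A1 had an adjusted p of 0.0679.

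**Figure D3:**
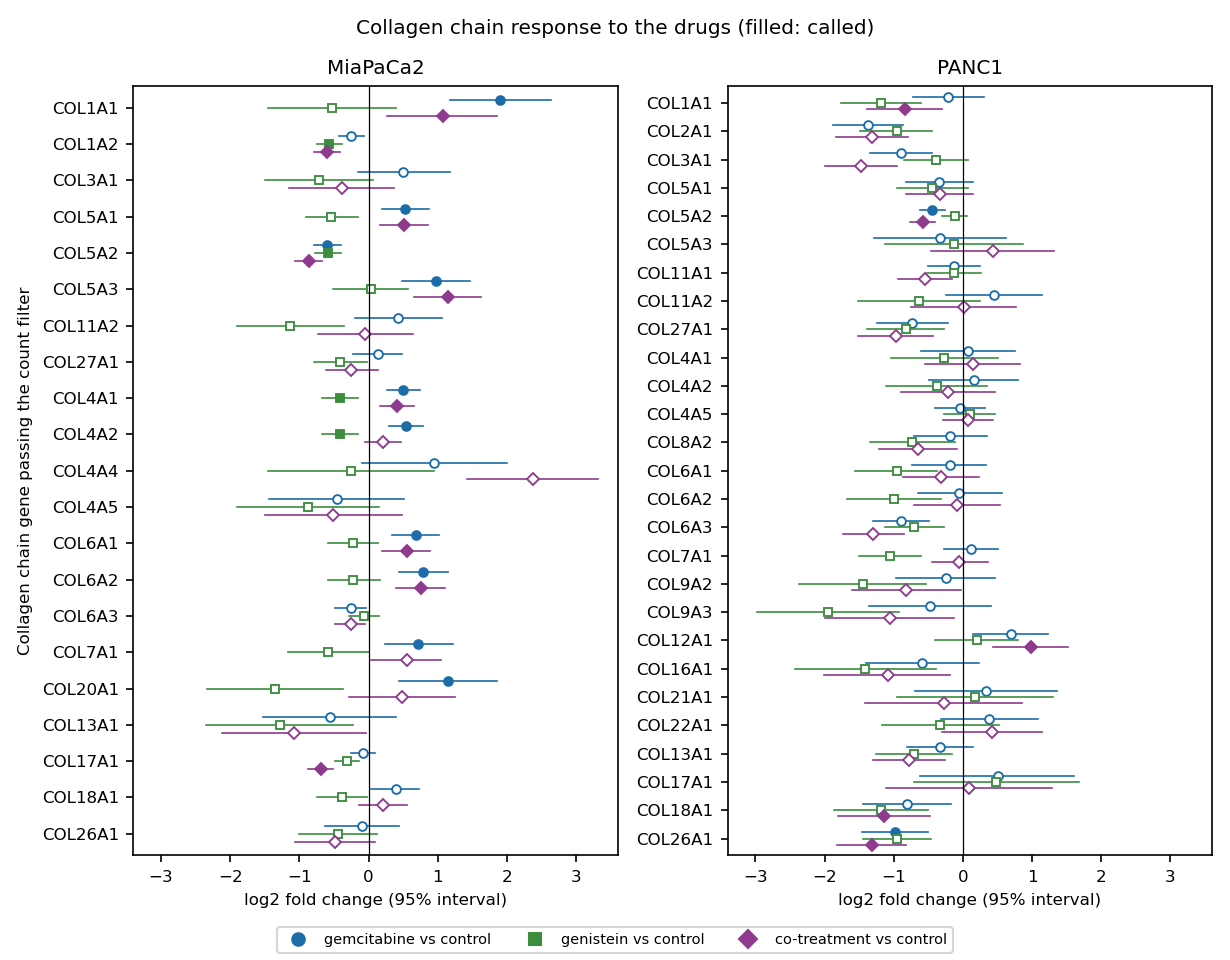
Log2 fold change against the control of the line, with 95% intervals, for each tested collagen chain under gemcitabine, genistein and co-treatment, in MiaPaCa2 (21 chains) and PANC1 (27 chains). Filled symbols are called, and COL5A2 lies left of 0 under every treatment in MiaPaCa2.

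Genistein alone lowered 4 of the 21 chains in MiaPaCa2 and raised none by the same rule, against 4.13% of all genes lower, 4.17% higher and 8.3% in either direction. The 4 were 2 of 8 tested fibril-forming chains and 2 of 4 basement membrane chains. COL5A2 fell from 1420 and 1390 to 872 and 997 CPM (log2 fold change -0.59, SE 0.09, adjusted p = 0.00239) and COL1A2 from 321 and 325 to 217 and 218 CPM (-0.57, SE 0.08, adjusted p = 0.00214). COL4A2 fell from 39.2 and 41.6 to 32.6 and 28.4 CPM (-0.42, SE 0.12, adjusted p = 0.0476) and COL4A1 from 25.2 and 22.9 to 17.1 and 18.9 CPM (-0.41, SE 0.12, adjusted p = 0.0467). In all 4, both genistein libraries were below both controls. The fold change was negative in 20 of the 21 chains, with a median of -0.44 against 0 over all genes, and 11 chains had an unadjusted p under 0.05, all lower, against 13.4% of all genes lower at that p. COL17A1 passed the adjusted p (0.027) with a log2 fold change of -0.31, and COL6A3 had the smallest of the negative values, -0.06.

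After the GC correction, COL5A1, COL17A1 and COL27A1 were called beside these 4, which made 7, all lower. The calls of COL4A1 and COL4A2 lay near the threshold, and 2 chains, without these, were called when genistein replicate 1 or 2, gemcitabine replicate 1 or 2, or control replicate 1 or 2 was left out.

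With both drugs, 9 chains were called in MiaPaCa2, 6 higher and 3 lower, against 40.5% of all genes, 20.3% higher and 20.2% lower. The higher chains were COL5A3, from 3.41 and 4.35 to 7.51 and 9.5 CPM (log2 fold change 1.15, SE 0.22, adjusted p = 0.000968), COL1A1, from 1.1 and 0.687 to 1.79 and 2 CPM (1.07, SE 0.37, adjusted p = 0.0266), COL6A2, from 26.5 and 29.3 to 45.8 and 50.6 FPKM (0.76, SE 0.17, adjusted p = 0.00208), COL6A1 (0.55), COL5A1 (0.51) and COL4A1 (0.41). The lower chains were the 3 most abundant by FPKM. COL5A2 fell to 807 and 740 CPM (log2 fold change -0.86, SE 0.09, adjusted p = 7.56e-06). COL17A1 fell from 200 and 206 to 125 and 127 CPM (-0.69, SE 0.08, adjusted p = 2.34e-05). COL1A2 fell to 204 and 221 CPM (-0.60, SE 0.08, adjusted p = 8.15e-05). None of these 6 chains given with their libraries had a co-treated library within the range of the controls.

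COL4A4, whose product joins the type IV network of the kidney, passed the adjusted p (0.00063) with a log2 fold change of 2.37 but is not called, since it stayed at 0.159 FPKM in both co-treated libraries. It had 4 and 5 counts in the controls, 9 and 12 with gemcitabine, 2 and 7 with genistein and 23 and 29 with both drugs. After the GC correction, 7 chains were called under co-treatment, 1 higher (COL5A3) and 6 lower, with COL26A1, COL27A1 and COL6A3 among the lower ones. COL4A1 then had 0.27 and its neighbour COL4A2 0.01, and neither was called. The GC slopes of the co-treated libraries were 0.04 and 0.27, and whether they bear on this shift was not tested. Without co-treatment replicate 2, 5 chains were called.

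When co-treatment was compared with gemcitabine alone, which asks what genistein added, 1 of the 21 chains was called, against 5.88% of all genes, 4.05% higher and 1.83% lower. COL17A1 was at 195 and 189 CPM with gemcitabine and 125 and 127 CPM with both drugs (log2 fold change -0.61, SE 0.08, adjusted p = 0.00128), and the groups did not overlap. COL1A2 (-0.35, adjusted p = 0.0267) passed the adjusted p alone, as did COL4A4 (1.42, adjusted p = 0.035), so that 3 chains passed it, against 7.34% of all genes. Of the 21 fold changes 19 were negative, with a median of -0.27 against -0.01 over all genes, and after the GC correction COL1A1 (-0.89), COL4A2 (-0.41) and COL27A1 (-0.44) were called too.

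The genes around collagen were followed as a list of their own. In MiaPaCa2, of 34 tested genes for collagen handling, gemcitabine changed 8 (23.5%, against 29.5% of all genes), with 6 higher, among them the propeptide proteases ADAMTS14 (log2 fold change 1.83), TLL2 (1.33) and BMP1 (0.73) and the collagen transcription factor CREB3L1 (0.75). Genistein changed 2 (5.88%, against 8.3%), the collagen receptor DDR2 (-0.45) and the protease gene CTSK (-0.64), both lower. Co-treatment changed 10 (29.4%, against 40.5%), of which 8 were higher, with TLL2 at 2.47, ADAMTS14 at 2.29 and CREB3L1 at 0.97, and with DDR2 lower at -0.94. TLL2 was also the gene called between co-treatment and gemcitabine, at 1.14 (2.94% of the 34, against 5.88% of all genes). All these shares lay below those of all genes. Under gemcitabine the fold changes of the 34 genes rose with GC content (Spearman's rho 0.24, and 0.43 over all genes). In both lines, the list was not tested with the GC correction or with libraries left out.

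In PANC1 treated with gemcitabine, 2 of the 27 tested chains were called, both lower, against 7.52% of all 16909 genes tested, 4.49% higher and 3.03% lower. COL26A1, a secreted chain, went from 26.1 and 19.2 to 12 and 10.5 CPM (log2 fold change -0.98, SE 0.21, adjusted p = 0.0289) and COL5A2 from 444 and 443 to 334 and 320 CPM (-0.44, SE 0.08, adjusted p = 0.0167). Treated and control libraries did not overlap. COL2A1 (-1.37, adjusted p = 0.0124), COL3A1 (-0.90, adjusted p = 0.0317) and COL6A3 (-0.90, adjusted p = 0.0228) passed the adjusted p but were under 1 FPKM with the drug. COL2A1 had a mean of 1.23 FPKM in the controls, while COL3A1 and COL6A3 were under 1 FPKM there too. By adjusted p alone, 5 chains passed, against 8.5% of all genes.

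Neither of the most abundant PANC1 chains was called under gemcitabine. COL18A1 went from 1680 and 1260 to 950 and 718 CPM, without overlap, but with a log2 fold change of -0.81 (95% interval -1.45 to -0.17) and an adjusted p of 0.114. COL1A1 was at 367 and 266 CPM in the controls and 301 and 240 CPM with gemcitabine, which overlapped (log2 fold change -0.21, 95% interval -0.72 to 0.30). Corrected for GC content, 4 chains were called, COL12A1 higher and COL5A2, COL18A1 and COL26A1 lower. No chain was called without gemcitabine replicate 1 or 2 or genistein replicate 1 or 2, and 1 without control replicate 1.

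Genistein alone gave 0 called chains of 27 in PANC1 by limma-voom and 0 by edgeR, against 0.0591% of all genes by limma-voom. DESeq2 called 7 chains, and its share of all genes is not given here. All the same, 23 of the 27 fold changes were negative, with a median of -0.70 against 0.05 over all genes, and 14 chains had an unadjusted p under 0.05, all lower, against 8.72% of all genes lower at that p. The lowest adjusted p among the chains was that of COL7A1 (0.107), which went from 77.5 and 64.2 to 39.4 and 28.9 CPM (log2 fold change -1.05). COL1A1 was at 147 and 126 CPM with genistein against 367 and 266 in the controls (-1.19, adjusted p = 0.118), COL18A1 at 678 and 590 against 1680 and 1260 (-1.19, adjusted p = 0.122), and COL9A3 at 10 and 9.76 against 46.6 and 32.6 CPM (-1.95, adjusted p = 0.119). In each of these 4 chains both genistein libraries lay below both controls, but none was called. They were singled out after their values were seen, and the share of all genes so separated is not given here.

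The chains with the lowest values were rich in GC. Over the 27 chains the log2 fold change under genistein fell with exon GC content (Spearman's rho -0.76), more steeply than over all genes (-0.33), and the PANC1 controls had GC slopes of 0.28 and -0.07 against -0.07 and -0.14 with genistein. Corrected for GC content, rho was -0.26, the median log2 fold change -0.39, and 3 chains were called, all lower: COL9A3 (-1.42, adjusted p = 0.0117), COL1A1 (-0.93, adjusted p = 0.00391) and COL18A1 (-0.40, adjusted p = 0.0118). The 0.0591% of all genes given above is from the uncorrected fit, and the share after the correction is not given here. How far base composition accounts for the values was not tested. Without co-treatment replicate 1 or 2 from the model, 2 chains were called.

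**Figure D4:**
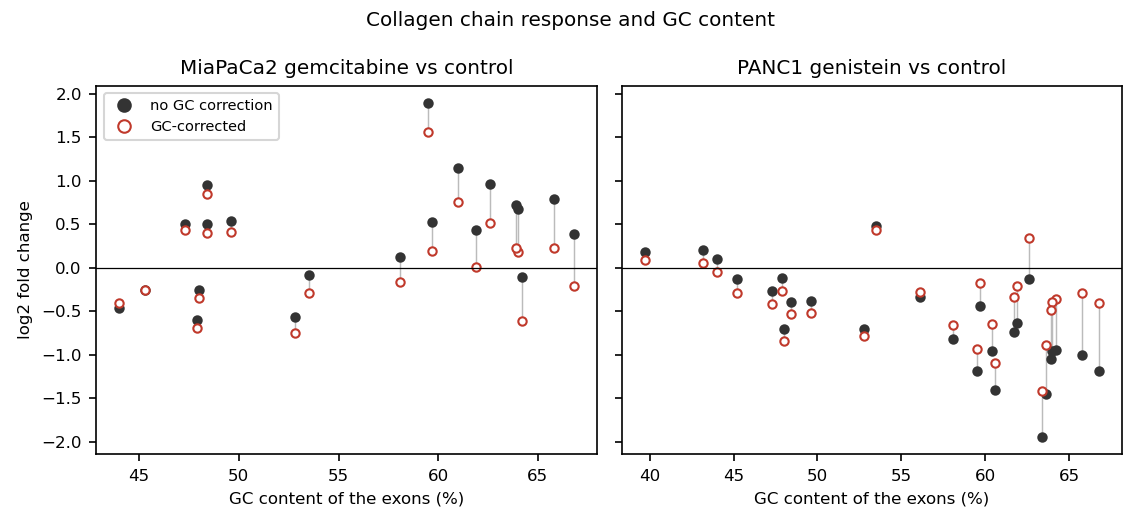
Log2 fold change of the tested collagen chains against the GC content of their exons in percent, for gemcitabine in MiaPaCa2 (21 chains) and genistein in PANC1 (27 chains). The points rise with GC content in the first panel (Spearman's rho 0.45) and fall in the second (-0.76).

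With both drugs, 5 chains were called in PANC1, 1 higher and 4 lower, against 17.1% of all genes, 10.2% higher and 6.9% lower. COL26A1 fell to 8.15 and 9.56 CPM from 26.1 and 19.2 (log2 fold change -1.32, SE 0.22, adjusted p = 0.00581), and COL5A2 from 444 and 443 to 296 and 297 CPM (-0.58, SE 0.08, adjusted p = 0.00294). COL18A1 fell to 457 and 923 CPM (-1.14, SE 0.29, adjusted p = 0.0293) and COL1A1 to 136 and 217 CPM (-0.84, SE 0.23, adjusted p = 0.0414), with wide gaps between the co-treated replicates but no overlap with the controls. COL12A1, a fibril-associated chain, rose from 3.81 and 4.91 to 9.45 and 7.94 CPM (0.98, SE 0.24, adjusted p = 0.0246).

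Another 5 chains, COL3A1 (-1.47), COL2A1 (-1.32), COL6A3 (-1.30), COL27A1 (-0.97) and COL13A1 (-0.78), passed the adjusted p at 1 FPKM or less with both drugs, which made 10 by adjusted p alone, against 19.8% of all genes. COL6A1 (-0.32) and COL6A2 (-0.08) did not pass, and COL7A1 had a log2 fold change of -0.05 (95% interval -0.45 to 0.36). With the GC trend removed 9 chains were called, 1 higher and 8 lower. Without genistein replicate 1 or 2, 2 chains were called, and without co-treatment replicate 1 or control replicate 1, 3. Between co-treatment and gemcitabine alone, 0 of 27 chains were called by limma-voom, by edgeR and by DESeq2, against 0.0177% of all genes, and 3 had an unadjusted p under 0.05, all lower (COL1A1, COL3A1 and COL11A1), against 5.12% of all genes lower at that p.

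Of 45 tested genes for collagen handling in PANC1, gemcitabine lowered 3 (6.67%, against 7.52% of all genes called), the chaperone and hydroxylation genes P3H4 (-0.54) and PPIB (-0.45) and the gelatinase MMP2 (-0.50). Genistein changed 0 by limma-voom, edgeR and DESeq2, with 10 at an unadjusted p under 0.05. Of these, 4 were higher and 6 lower, against 8.72% of all genes lower at that p. Co-treatment changed 7 (15.6%, against 17.1%), with the prolyl hydroxylase subunit P4HA3 higher (1.26) and ITGA2 (-0.83), ITGA10 (-0.83) and MMP2 (-0.77) among 6 lower. Against gemcitabine alone 0 were called by the 3 tools, with 5 at an unadjusted p under 0.05. Of these 5, 2 were higher and 3 lower, against 5.12% of all genes lower at that p.

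Whether the response to a drug differed between the lines was tested in the model of all 16 libraries, with a difference called by the adjusted p alone. For gemcitabine, 4 of 30 chains (13.3%) were called, all with a lower response in PANC1, against 15.3% of all genes and 9.06% lower. All 4 were among the 18 chains tested in both lines, and the other 12 had few or no counts in 1 line, where a response could not be measured. COL3A1 went from 1.71 and 1.07 to 2.21 and 1.76 CPM in MiaPaCa2 and from 4.4 and 3.81 to 2 and 2.32 CPM in PANC1 (difference -1.50, SE 0.34, adjusted p = 0.0134). COL5A1 went from 20.3 and 21.5 to 32.4 and 28 CPM in MiaPaCa2 and from 13.5 and 11.3 to 10.1 and 9.37 CPM in PANC1 (-0.96, SE 0.29, adjusted p = 0.0414), so its treated libraries lay above the controls in MiaPaCa2 and below them in PANC1. COL27A1 went from 11 and 10.2 to 13.1 and 10.3 CPM and from 7.72 and 5.59 to 4.4 and 3.5 CPM (-0.94, SE 0.29, adjusted p = 0.0472). COL6A3 had a log2 fold change of -0.26 in MiaPaCa2 and went from 5.13 and 5.2 to 2.56 and 2.96 CPM in PANC1 (-0.73, SE 0.21, adjusted p = 0.0362), with negative values in both lines. The deposited FPKM of COL6A3 in PANC1 did not follow its counts, at 0.414 and 0.436 in the controls and 0.339 and 0.859 with gemcitabine, and by limma-trend on log2(FPKM + 1) the difference was 0.26 in the opposite direction.

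The difference for COL1A1 was larger, -2.21, but rested on few MiaPaCa2 counts (SE 0.76, adjusted p = 0.0659), and that for COL5A2 was 0.06 (95% interval -0.21 to 0.32). After the GC correction 6 chains were called, all lower in PANC1. These were COL3A1, COL5A1 and COL6A3 again, COL1A1 (-1.71, SE 0.35, adjusted p = 0.00286), COL18A1 (-0.56, adjusted p = 0.00139) and COL2A1, which had 3 counts or fewer in every MiaPaCa2 library. Without the correction edgeR called 6 and DESeq2 8, with no share of all genes given here for these alternatives. The count depended on several libraries: it was 0 without MiaPaCa2 gemcitabine replicate 1 or control replicate 2, and 1 or 2 without MiaPaCa2 genistein replicate 1 or 2, MiaPaCa2 control replicate 1, PANC1 genistein replicate 1 or 2, PANC1 gemcitabine replicate 1 or 2, or PANC1 control replicate 1. It was 7 without PANC1 co-treatment replicate 2 and 10 without PANC1 control replicate 2. Of 44 genes for collagen handling, 12 differed in response (27.3%, against 15.3% of all genes), and 10 of the 44 could not be tested within MiaPaCa2. Of the 12, 11 were lower in PANC1, where 9.06% of all genes were lower. Response differences of the 44 fell with GC content (Spearman's rho -0.41, and -0.49 over all genes). This list was not tested with the GC correction or with libraries left out.

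**Figure D5:**
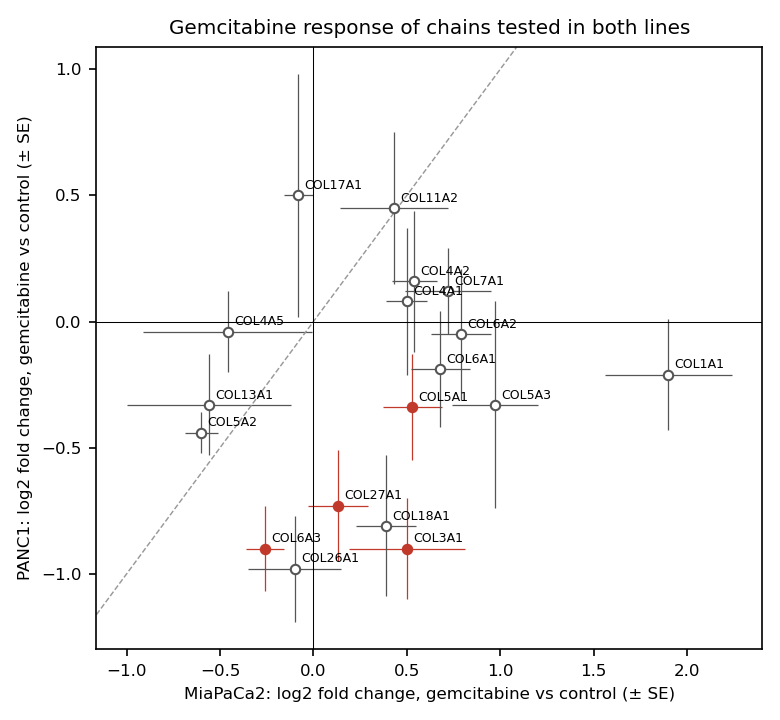
Log2 fold change under gemcitabine in MiaPaCa2 (horizontal axis) and in PANC1 (vertical axis) for the 18 collagen chains tested in both lines, with the chains whose response difference was called in red. COL5A2 lies below 0 in both lines, at -0.60 and -0.44.

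For genistein alone, the response difference was called for 0 of 30 chains by limma-voom, edgeR and DESeq2, against 0.0336% of all genes, and 3 had an unadjusted p under 0.05 (11.5% of all genes). For genistein added to gemcitabine it was again called for 0 by the 3 tools, against 0.106% of all genes, with 2 at an unadjusted p under 0.05 (6.99% of all genes). Intervals for single chains were wide, for example -1.84 to 0.14 for COL18A1 under genistein, so a difference in response was not detectable at this depth and number of replicates.

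COL5A2 was the chain called lower in both lines by gemcitabine and by co-treatment. By treatment, 14.6% and 20.2% of all genes were called lower in MiaPaCa2 and 3.03% and 6.9% in PANC1. The share of all genes called lower in both lines is not given here. In PANC1 under gemcitabine, COL5A2 lost its call with library size alone and with limma-trend on log2(FPKM + 1). Its log2 fold change was -0.60 and -0.86 in MiaPaCa2 and -0.44 and -0.58 in PANC1 under these treatments, each pair against a shared control. Under genistein alone it was -0.59 in MiaPaCa2 but -0.12 (95% interval -0.30 to 0.06) in PANC1, with 429 and 388 CPM against 444 and 443.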

How the data were processed

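The authors sequenced stranded poly-A RNA as single reads, mapped them to GRCh37 with TopHat2 2.0.4, removed multiple alignments with Picard 1.29 and deposited whole-number counts per gene from HTSeq 0.6.1. The authors also deposited FPKM per gene and transcript from Cufflinks 2.1.1, scaled to transcript length and depth. The annotation release and strand setting are not given in the sources used here. Counts and FPKM were joined by Ensembl identifier. Of 242 repeated identifier rows in the FPKM table the first was used, and no collagen chain was among them.

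Counts were filtered with filterByExpr, TMM-normalised and tested with limma-voom with Benjamini-Hochberg adjustment (R 4.3.3, limma 3.58.1, edgeR 4.0.16), over 8 libraries for drug effects within a line and over 16 for differences between lines. Depth was 12943482 to 31991860 counts per library, with a median of 16059396.5. As groups held 2 replicates, limma-voom moderated each gene's variance with that of all genes. Replicates differed by more than sampling noise in every group (chi-square per degree of freedom 2.7 to 32), and no library was merged. Intervals of count ratios are exact and cover counting error only. GC content and overlaps came from GENCODE v44 lifted to GRCh37. The procedure was tested on simulated data.

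Every chain could be named. Chains given in full were those called in a comparison, up to the 6 with the largest fold change, and genes for collagen handling were named when called, up to 4 per comparison. The chains, gene lists and tests were chosen with earlier results of these data known. Chains that were not called or ranked lower are given with fewer values, and COL4A4, the abundant PANC1 chains and the partner chains were singled out after their values were seen.

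Alternatives were edgeR's quasi-likelihood test, DESeq2 1.42.0, DESeq2's size factors, library size alone, limma-trend on log2(FPKM + 1), no count filter, other sets of libraries in the model, the replicate block, removal of each library's loess trend on GC content (span 0.3, degree 1) with and without the block, no FPKM criterion, a log2 fold change of at least 1, other expression limits, and each library left out in turn.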

Additional observations from a re-analysis of the deposited data

Results flagged for a closer look

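The response to gemcitabine differed between the lines for 4 chains by a test of the difference itself, which is 13.3% of the 30 chains tested against 15.3% of all genes. The differences were, with PANC1 minus MiaPaCa2 on the log2 scale, -1.50 for COL3A1 (adjusted p = 0.0134), -0.96 for COL5A1 (adjusted p = 0.0414), -0.94 for COL27A1 (adjusted p = 0.0472) and -0.73 for COL6A3 (adjusted p = 0.0362); these are limma-voom values adjusted over all genes. COL5A1 was called higher under gemcitabine in MiaPaCa2 (0.53) and had -0.34 in PANC1, whereas COL6A3 was at -0.26 in MiaPaCa2 and -0.90 in PANC1. With the GC trend removed, the differences were -1.37 for COL3A1, -0.47 for COL5A1, -0.51 for COL27A1 and -0.62 for COL6A3, and that of COL27A1 had an adjusted p of 0.0835. Of 16 fits that each left out 1 library, the call was lost in 2 for COL3A1, 9 for COL6A3, 11 for COL5A1 and 13 for COL27A1, and by limma-trend on log2(FPKM + 1) the COL6A3 difference was 0.26, in the opposite direction. Every group had 2 libraries, so single libraries were not tested as outliers within a group.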

How the results depend on the processing

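Groups of 2 libraries limit the precision of every result, and chains near the floor of 3 counts carry wide errors. Among 34 values of single chains, 594 of 748 alternative values kept direction and side of the threshold, 153 kept the direction without passing, and 1 reversed: the COL6A3 difference in gemcitabine response was 0.26 by limma-trend on log2(FPKM + 1). Between the untreated lines, 19 to 29 chains were called under the alternatives, lowest with a log2 fold change of at least 1 and highest without the FPKM criterion. For drug effects, the counts of called chains moved as follows, and the cause was not tested. These counts are given without the share of all genes called under the same alternative, so none is set against a background. With limma-trend, they were 6 for gemcitabine, 0 for genistein and 0 for co-treatment against gemcitabine in MiaPaCa2, 0 for gemcitabine and 3 for co-treatment in PANC1, and 1 for the gemcitabine response difference. With a log2 fold change of at least 1 they were 2, 0, 2 and 0 in MiaPaCa2 (gemcitabine, genistein, co-treatment, co-treatment against gemcitabine) and 0 and 2 in PANC1 (gemcitabine, co-treatment). With the GC correction they were 7 for genistein and 4 for co-treatment against gemcitabine in MiaPaCa2, and 4 for gemcitabine, 3 for genistein, 9 for co-treatment and 1 for co-treatment against gemcitabine in PANC1. Without the FPKM criterion they were 2 for co-treatment against gemcitabine in MiaPaCa2, 5 for gemcitabine and 10 for co-treatment in PANC1. Without a count filter, 2 were called for genistein in MiaPaCa2 and 1 for the response difference. With all libraries in a shared model, 2 were called for genistein in MiaPaCa2, 5 for genistein and 8 for co-treatment in PANC1. Library size alone gave 1 for gemcitabine in PANC1 and 2 for the response difference, and DESeq2 gave 7 for genistein in PANC1 and 8 for the response difference. Above 2 FPKM, 11 chains were expressed in PANC1.

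The labels number the replicates but do not say whether same-numbered libraries were handled together. Deviations of same-numbered libraries correlated by more than 0.1 in 1 of 6 pairs of groups in MiaPaCa2 (-0.299 to 0.155) and 3 of 6 in PANC1 (-0.569 to 0.331). Each deviation rests on 2 libraries, so these values cannot settle whether the replicates were paired. With the replicate block, 2 chains were called for genistein in MiaPaCa2, 1 for gemcitabine and 3 for co-treatment in PANC1, and 2 for the gemcitabine response difference. With the block and the GC correction, 5 were called for gemcitabine and 3 for co-treatment against gemcitabine in MiaPaCa2, and 4, 3, 9 and 1 in PANC1 (gemcitabine, genistein, co-treatment, co-treatment against gemcitabine).

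With each library left out in turn, calls ranged from 20 to 22 between the untreated lines, 5 to 10 (gemcitabine), 2 to 5 (genistein), 5 to 9 (co-treatment) and 1 to 1 (co-treatment against gemcitabine) in MiaPaCa2, 0 to 3, 0 to 2, 2 to 7 and 0 to 0 in PANC1, 0 to 10 for the gemcitabine response difference and 0 to 0 for the other response differences. Expressed chains ranged from 13 to 13 in MiaPaCa2 and 17 to 19 in PANC1.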
